A study of Mus musculus with 24 samples.

Results

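The catalytic core of Polycomb repressive complex 2 (PRC2) was followed at the RNA level through its 6 genes: Eed, Ezh2, Ezh1, Suz12, Rbbp4 and Rbbp7. They were chosen by name from 19938 genes that had a probe set with a single gene symbol, and all 6 were measured. Each gene was represented by its probe set with the highest mean over all arrays. RNA came from undifferentiated mouse embryonic stem cells (ESCs, day 0) and from embryoid bodies of days 3 and 7, the aggregates in which such cells differentiate. There were 4 sources of cells: an Eed knockout (KO) of line E14, an Eed knockout of J1, and wild-type (WT) J1 and V6.5. Each was measured on 2 arrays a day, which gave 12 groups and 24 arrays. A line of 1 genotype is called a clone here, and all 4 were expanded with LIF on inactivated embryonic fibroblasts, and embryoid bodies were made without LIF after the fibroblasts had been depleted. J1 is the only line present as both KO and WT, and which part of Eed was deleted is not in the labels.

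PRC2 places methyl groups on lysine 27 of histone H3, a mark of silenced developmental genes. EZH2 or its paralog EZH1 carries the catalytic domain, SUZ12 is the scaffold on which the complex assembles, and EED binds the finished mark and stimulates the enzyme. RBBP4 and RBBP7 are closely related histone-binding proteins that also serve in the NuRD and Sin3 deacetylase complexes and in chromatin assembly. ESCs without EED lack the mark but keep growing, and EZH2 and EED are known as targets of E2F factors, which act in dividing cells.

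All values are log2 expression values of RMA-normalized arrays. Calls rest on limma with p adjusted by Benjamini-Hochberg over the 19938 genes and a limit of 0.05, and rose, fell, higher and lower are used of called genes. Repeat arrays of a group correlated across genes at r = 0.990 to 0.995, except WT J1 on day 7 at r = 0.962. Whether the 2 arrays of a group stand for separate cultures is not in the labels. The p-values measure only the spread of these samples, possibly a technical one. The ESC marker Pou5f1 was at 12.30 to 12.65 on all day 0 arrays. The mean of 10 pluripotency genes was 7.64 to 8.32 on the WT arrays of day 7 and 11.02 to 11.63 on the KO arrays. The day 7 samples of the genotypes therefore differed in cell type, and in bulk RNA fewer cells of a type cannot be told apart from less RNA per cell.

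Upstream sequences are shown for Eed, Suz12 and Rbbp7, the 3 genes called in WT differentiation, and for Ezh2, the main ESC enzyme, so that their start regions can be compared. Each is the 250 bases before the gene start in RefSeq on GRCm38.p6, written 5′ to 3′ on the strand of the gene. Eed is at chr7:89980977-89981226 (minus), Suz12 at chr11:79992856-79993105 (plus), Rbbp7 at chrX:162760122-162760371 (plus) and Ezh2 at chr6:47595031-47595280 (minus). Capitals mark matches on either strand to the E2F forms TTTCCCGC and TTTGGCGC, the CCAAT box CCAAT, the GC box GGGCGG and the TATA form TATAAA.
Eed: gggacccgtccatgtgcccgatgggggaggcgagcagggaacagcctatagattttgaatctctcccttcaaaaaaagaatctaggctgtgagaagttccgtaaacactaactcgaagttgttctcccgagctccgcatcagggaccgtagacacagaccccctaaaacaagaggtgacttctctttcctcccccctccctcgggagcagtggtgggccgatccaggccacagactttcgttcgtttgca
Suz12: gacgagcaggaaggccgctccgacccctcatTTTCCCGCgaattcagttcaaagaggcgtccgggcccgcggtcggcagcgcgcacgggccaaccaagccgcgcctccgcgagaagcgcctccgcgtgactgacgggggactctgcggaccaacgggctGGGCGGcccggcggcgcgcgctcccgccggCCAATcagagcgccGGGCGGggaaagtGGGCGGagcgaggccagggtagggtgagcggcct
Rbbp7: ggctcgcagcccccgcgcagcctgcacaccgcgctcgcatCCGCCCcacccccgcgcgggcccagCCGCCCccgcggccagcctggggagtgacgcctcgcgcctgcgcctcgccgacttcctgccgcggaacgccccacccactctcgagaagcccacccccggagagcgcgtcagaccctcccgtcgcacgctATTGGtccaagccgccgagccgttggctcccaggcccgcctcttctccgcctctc
Ezh2: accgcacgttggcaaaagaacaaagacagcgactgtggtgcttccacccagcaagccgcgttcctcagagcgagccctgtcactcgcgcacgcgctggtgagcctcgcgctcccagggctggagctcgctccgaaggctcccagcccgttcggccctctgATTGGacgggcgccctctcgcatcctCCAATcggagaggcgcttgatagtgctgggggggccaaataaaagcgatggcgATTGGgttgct

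Suz12 held 1 TTTCCCGC, a form found in 0.895% of 32851 promoters of this length, with 1 CCAAT and 3 GGGCGG. Rbbp7 held 1 CCAAT and 2 GGGCGG, and Ezh2 held 3 CCAAT, and the matches did not overlap each other. The shares of these promoters were 33.8% for CCAAT, 32.7% for GGGCGG, 12.4% for TATAAA and 0.417% for TTTGGCGC. In the Eed window none of the 5 forms was found, nor in that of Ezh1, and Rbbp4 held 1 CCAAT and 2 GGGCGG. GC content was 54.4% for Eed, 63.6% for Ezh2, 73.6% for Suz12 and 76.4% for Rbbp7, against a median of 52.4% over all promoters. A match is a run of letters and not a shown binding site.

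Eed, the targeted gene, separated the genotypes completely. In WT cells the J1 arrays read 10.28 and 10.80 on day 0, 9.60 and 9.91 on day 3, and 9.56 and 9.41 on day 7. The V6.5 arrays read 10.83 and 11.02, then 10.25 and 10.36, then 9.37 and 9.79. WT Eed was thus highest in ESCs of both lines. In KO cells the E14 arrays read 7.44 and 7.48 on day 0, 5.76 and 6.97 on day 3, and 6.64 and 6.09 on day 7. The J1 arrays read 7.19 and 7.06, then 6.21 and 6.42, then 6.26 and 6.23. The highest KO array lay below the lowest WT array by a wide margin on every day.

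KO minus WT was −3.44 on day 0, −3.69 on day 3 and −3.23 on day 7 (SE 0.226, adjusted p in limma 2.7e-09, 3.3e-10 and 9.2e-10). With the mean of both Eed probe sets the differences were −1.67, −1.89 and −1.61, still called. The second probe set lay between 5.46 and 6.21 on all arrays of both genotypes and was not used. Eed was the only core gene called on any of these days, 1 of 6 on each, while 2.02% of all genes were called on day 0, 2.18% on day 3 and 16.3% on day 7. Within line J1 alone the differences were −3.41, −3.44 and −3.24, again called on all 3 days, where 1.66%, 2.6% and 14.2% of genes were called. The gene lies on chromosome 7. None of the 3 measured genes on either side of it (Me3, Ccdc81 and Hikeshi, and Ccdc83, Sytl2 and Ccdc89) was called between KO and WT on any day, with differences from −0.24 to 0.72. Only Hikeshi was high, with genotype means of 10.91 to 11.63. The others had means of 4.38 to 6.43, a low range where RMA compresses differences, so their missing calls say little.

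**Figure D1:**
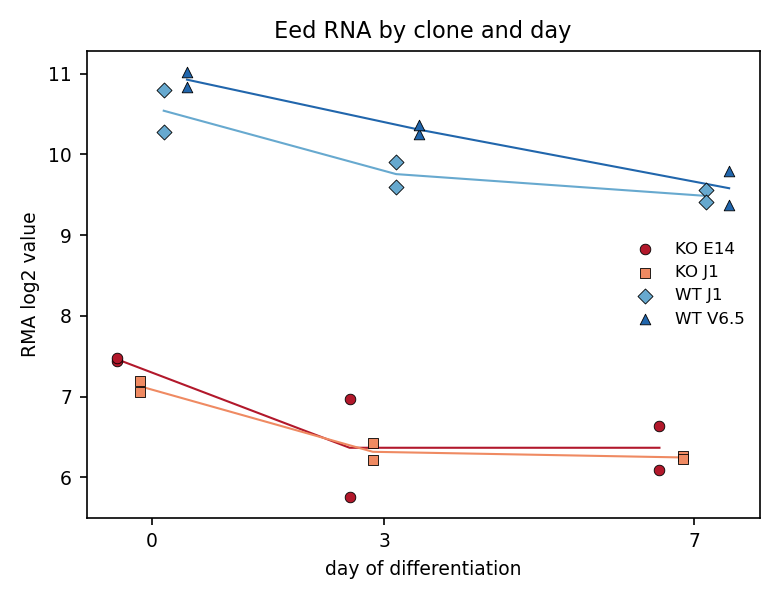
Eed RNA (RMA log2 value) on each of the 24 arrays against the day of differentiation, with points for arrays and lines through the mean of the 2 arrays of a clone and day. Clones are set side by side around each day. All WT arrays lie between 9.37 and 11.02 and all KO arrays between 5.76 and 7.48, and both genotypes decline from day 0. The later KO values reach down to those of the second Eed probe set (5.46 to 6.21 on all arrays).

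Eed also fell during differentiation in both genotypes. In WT cells the mean went from 10.73 ± 0.32 (SD, n = 4 arrays) on day 0 to 10.03 ± 0.34 on day 3 and 9.53 ± 0.19 on day 7. The day 7 change was −1.20 (SE 0.192, adjusted p in limma 2.2e-05), a 2.29-fold fall, and no day 7 array overlapped a day 0 array. On day 3 the change was −0.70 (adjusted p 0.0165), with 1 of 6 core genes called against 11.7% of all genes, but arrays of both days overlapped. That early call was lost (adjusted p 0.0529 to 0.212 in limma) without WT J1 replicate 2, without either V6.5 replicate, or without the clone KO J1, WT J1 or WT V6.5. Line by line, Eed changed by −1.06 in WT J1 and −1.34 in WT V6.5 from day 0 to day 7.

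The low Eed signal of KO cells fell as well, from 7.29 ± 0.20 (SD, n = 4 arrays) on day 0 to 6.34 ± 0.50 on day 3 and 6.30 ± 0.23 on day 7. The changes were −0.95 (adjusted p in limma 0.00301) and −0.99 (adjusted p 0.000858), and the arrays did not overlap between day 0 and either later day. The later KO values reached down to those of the second Eed probe set (5.46 to 6.21 on all arrays), and RMA compresses differences near background. On day 3 the KO E14 arrays were 1.21 apart. The size of the KO fall can therefore not be set beside that in WT. Eed was the 1 of 6 core genes called in each of these comparisons, in which 6.36% and 16.5% of all genes were called. The day 3 call was lost without either KO clone (adjusted p 0.0848 and 0.104 in limma). Feeder fibroblast markers moved beside this signal up to day 3 but not from day 3 to day 7. The mean of 11 such genes was 7.98 to 9.19 on the KO arrays of day 0, 7.22 to 7.44 on day 3 and 7.87 to 8.44 on day 7. On WT arrays this mean was 7.44 to 7.80 on day 0 and 7.86 to 9.48 on day 7, when fibroblasts had been depleted. From day 0 to day 3 in KO cells, 5 of the 11 fell, among them Lox (−2.38) and Fbln2 (−1.58), and 2 without the clone KO E14 and 3 without KO J1. The part of fibroblast RNA in the KO Eed signal was not tested.

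The enzymes were next. Ezh2 in WT J1 read 11.58 and 11.72 on day 0, 11.34 and 11.48 on day 3, and 11.77 and 11.26 on day 7. WT V6.5 read 11.22 and 11.38, then 10.87 and 10.90, then 10.94 and 11.12. V6.5 lay below J1 on all 3 days. In KO cells E14 read 11.53 and 11.64, then 11.26 and 11.56, then 11.29 and 11.59. KO J1 read 11.97 and 11.94, then 11.68 and 11.58, then 11.83 and 11.89, above WT J1 on all 3 days. The 12 groups ran from 11.95 in KO J1 on day 0 to 10.89 in WT V6.5 on day 3, and 4 of the 11 neighbouring pairs in this order did not overlap.

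Ezh2 was not called between the genotypes. KO minus WT was 0.30, 0.37 and 0.38 on days 0, 3 and 7 (SE 0.165, adjusted p in limma 0.493, 0.326 and 0.134), and arrays of the genotypes overlapped each day. Without the clone WT J1 it was called on day 3 (0.64, adjusted p 0.0290) and on day 7 (0.62, adjusted p 0.00966), and without WT J1 replicate 1 on day 7 (0.51, adjusted p 0.0331). Between lines of a genotype, WT V6.5 minus WT J1 was −0.35, −0.52 and −0.48 (adjusted p 0.340, 0.0944 and 0.0980). No core gene was called between the WT lines, where 3.03%, 2.54% and 4.03% of all genes were called on days 0, 3 and 7. None was called between the KO lines either, where the shares were 1.51%, 0.251% and 3.27%. At an unadjusted p under 0.05 in limma, 2 of 15 KO and WT differences of the core genes other than Eed passed, both of Ezh2, while 12.8%, 12.7% and 27.6% of all genes passed on days 0, 3 and 7. Ezh2 changed little in time: day 7 minus day 0 was −0.20 in WT and −0.12 in KO, neither called.

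The whole of chromosome 6, where Ezh2 lies, differed between the genotypes in the same direction. Over 374 other genes of this chromosome with a mean of at least 8, the median KO minus WT difference was 0.34, 0.27 and 0.37 on days 0, 3 and 7, against −0.01, −0.01 and 0.05 over the 8286 genes of all chromosomes with such a mean. Ezh2 stood at the 44.1, 65.5 and 50.8 percentiles of these genes. KO J1 was above WT J1 for 90.1%, 75.9% and 82.9% of the chromosome 6 genes, against 54.7%, 58.6% and 60.5% of these 8286 genes. Taken relative to the median of its chromosome on each array, an alternative added after seeing the data, the Ezh2 difference was −0.01 on day 0 and 0.11 on day 3. Single pairs of clones did not all follow this. KO E14 minus WT J1 was 0.14, 0.20 and 0.28 for the chromosome 6 median on days 0, 3 and 7. Ezh2 itself had means of 11.59, 11.41 and 11.44 in KO E14 and 11.65, 11.41 and 11.51 in WT J1. WT J1 minus WT V6.5 was 0.11, 0.11 and 0.10 for this median, and the Ezh2 difference between these lines was larger. The copy number of the chromosomes was not analysed here, and its part in the Ezh2 values was not tested.

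Ezh1, the paralog known for its presence in cells that no longer divide, showed no call in any of the 8 comparisons. WT J1 read 9.72 and 9.70 on day 0, 9.21 and 8.98 on day 3, and 9.31 and 9.57 on day 7. WT V6.5 read 9.10 and 8.99, then 9.18 and 9.20, then 9.26 and 9.16. On day 0 the WT lines lay apart, with V6.5 minus J1 at −0.66 (adjusted p in limma 0.0631). KO E14 read 9.02 and 8.98, then 8.80 and 8.96, then 8.99 and 9.14. KO J1 read 9.29 and 9.53, then 8.75 and 9.32, then 8.97 and 9.53. The group means spanned 0.83, from 9.71 in WT J1 on day 0 to 8.88 in KO E14 on day 3, and only 2 of 11 neighbouring pairs did not overlap.

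Ezh1 and Suz12 share chromosome 11, which also differed by clone. WT J1 was above WT V6.5 for 88.4%, 87.7% and 86.3% of its 698 genes on days 0, 3 and 7. Over the genes of all chromosomes this share was 49.95%, 39.4% and 39.0%. The chromosome's median deviation was 0.27, 0.19 and 0.16 in WT J1 and between −0.12 and −0.02 in the other clones. Over the 12 groups, Ezh2 correlated with the median of chromosome 6 at r = 0.81 (0.68 without 2 groups), and Ezh1 with that of chromosome 11 at r = 0.68 (0.65). For Suz12 this was r = 0.37, and −0.06 without 2 groups. These r describe 12 groups that share clones and normalization.

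**Figure D2:**
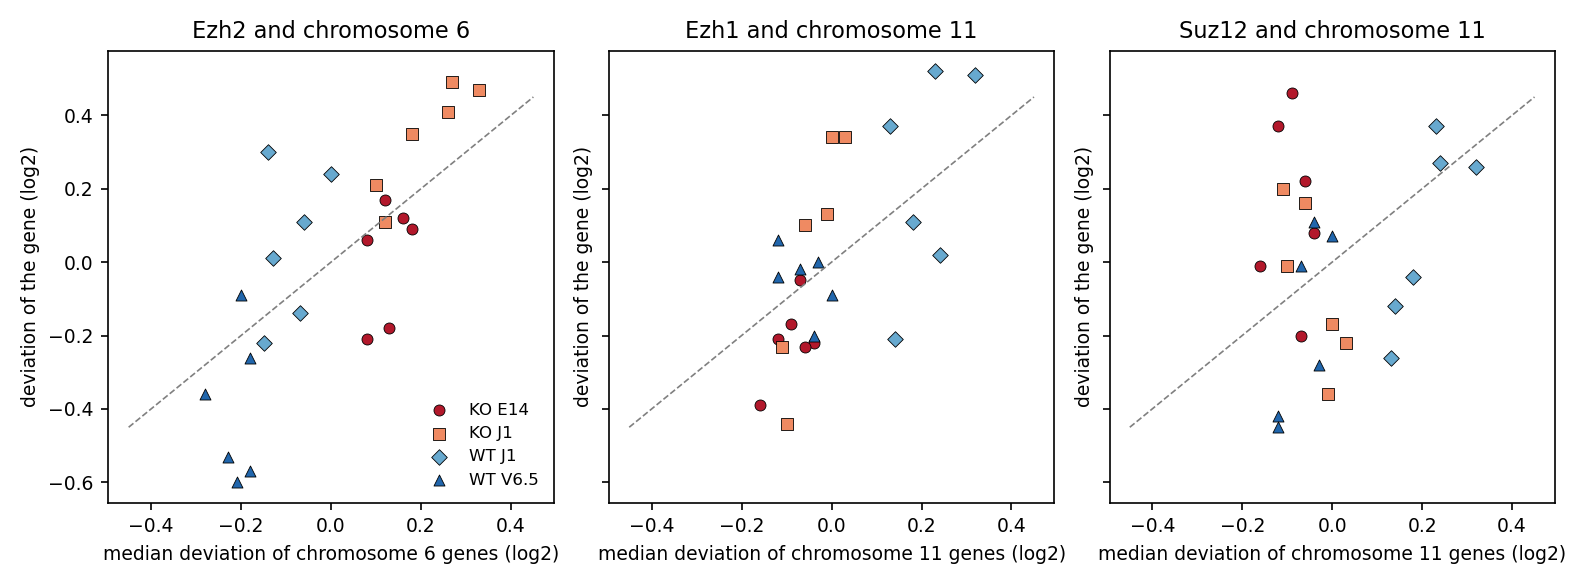
Deviation of Ezh2, Ezh1 and Suz12 from their mean over all arrays (vertical, log2) against the median deviation of the genes of their chromosome on the same array (horizontal, log2), 1 point per array, with a dashed line of equal deviation. KO J1 lies to the right and WT V6.5 to the left for chromosome 6, and WT J1 lies to the right for chromosome 11. Over 12 groups Ezh2 correlated with its chromosome at r = 0.81 and Suz12 at r = 0.37. Ezh2 did not follow chromosome 6 between KO E14 and WT J1.

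The balance of the enzymes was taken as Ezh1 minus Ezh2 on each array, which is read only as a change between groups. In WT cells it was −2.10 ± 0.22 (SD, n = 4 arrays) on day 0 and −1.95 ± 0.37 on day 7, a difference of 0.15 (two-sided exact permutation test, p = 0.543, adjusted p = 0.657 over 3 tests). In KO cells the day 7 difference was 0.08 (exact permutation p = 0.657). KO minus WT on day 7 was −0.54 (exact permutation p = 0.114, adjusted p = 0.343), and −0.07 with each gene taken relative to the median of its chromosome. With 4 arrays against 4 the smallest p that 70 assignments allow is 0.0286, and none of the 3 differences reached it. The test shuffled the 4 arrays of a genotype and day as equals, although they are repeat arrays of only 2 clones. A single difference at the smallest p would not stay under 0.05 after adjustment over 3 tests. The test could therefore not call a lone difference.

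Suz12, the scaffold, fell in differentiating WT cells. WT J1 read 11.84 and 11.73 on day 0, 11.75 and 11.36 on day 3, and 11.43 and 11.21 on day 7. WT V6.5 read 11.55 and 11.58, then 11.46 and 11.20, then 11.05 and 11.03. All 4 WT arrays of day 7 lay below all 4 of day 0. The change was −0.49 (SE 0.143, adjusted p in limma 0.00769), a 1.41-fold fall, with −0.46 in J1 and −0.53 in V6.5. Relative to the median of chromosome 11 it was −0.38 (adjusted p 0.0457). The call was lost without the clone WT V6.5 (−0.46, adjusted p 0.173) or WT J1 (−0.53, adjusted p 0.0637).

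In KO cells Suz12 was not called on either day. KO E14 read 11.93 and 11.56 on day 0, 11.46 and 11.69 on day 3, and 11.85 and 11.28 on day 7. KO J1 read 11.64 and 11.25, then 11.46 and 11.11, then 11.67 and 11.31. Repeat arrays of the KO clones were thus up to 0.57 apart. Replicate 2 was the lower array in KO J1 on all 3 days and in KO E14 on days 0 and 7. The same held in WT J1 on all 3 days and in WT V6.5 on days 3 and 7, so this order was not particular to KO cells. The day 7 change was −0.07 (adjusted p in limma 0.816). The difference between the genotypes in this change, the interaction, was 0.42 (95% interval 0.01 to 0.84, adjusted p in limma 0.234) and was not called. The WT call and the missing KO call therefore do not show that the genotypes differ.

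Rbbp4 varied least of the core genes, with group means spanning 0.27, from 12.05 to 11.78, and no neighbouring pair without overlap. All arrays lay between 11.67 and 12.16. Its largest difference between the genotypes was −0.19 on day 0 (adjusted p in limma 0.426). In KO cells day 3 lay above day 0 without overlap of arrays, 11.90 to 11.98 against 11.74 to 11.82, but the difference of 0.16 was not called (adjusted p 0.284). With each array centred on its median, the WT change from day 0 to day 7 was called for Rbbp4 (−0.23, adjusted p 0.0395, against −0.16, adjusted p 0.132).

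Rbbp7, its X-linked paralog, rose in differentiating WT cells. WT J1 read 11.27 and 11.55 on day 0, 11.64 and 11.17 on day 3, and 11.47 and 11.80 on day 7. WT V6.5 read 11.36 and 11.41, then 11.39 and 11.48, then 11.96 and 11.90. The day 7 change was 0.39 (SE 0.118, adjusted p in limma 0.0117), or 1.31-fold, although 1 J1 array of day 7 lay within the day 0 range. The change was 0.23 in J1 and 0.54 in V6.5. It was not called without either V6.5 replicate (adjusted p 0.0744 and 0.116) or without the whole clone (0.23, adjusted p 0.484). A second Rbbp7 probe set, not used for the values here, followed the first at r = 0.90 over 24 arrays. In it WT J1 read 11.17 and 11.59 on day 0 and 11.25 and 11.63 on day 7. WT V6.5 read 11.16 and 11.46, then 11.78 and 11.91. The WT change in this probe set was thus mainly that of V6.5.

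In KO cells Rbbp7 was 0.29 above day 0 on day 7 (adjusted p in limma 0.105), with 0.43 in E14 and 0.14 in J1. KO E14 read 11.33 and 11.24 on day 0, 11.49 and 11.72 on day 3, and 11.75 and 11.68 on day 7. KO J1 read 11.26 and 11.20, then 11.30 and 11.18, then 11.47 and 11.27. E14 lay above J1 on days 3 and 7, and neither difference was called. After a further quantile normalization of the genes the KO change of day 7 was called (0.34, adjusted p 0.0337).

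**Figure D3:**
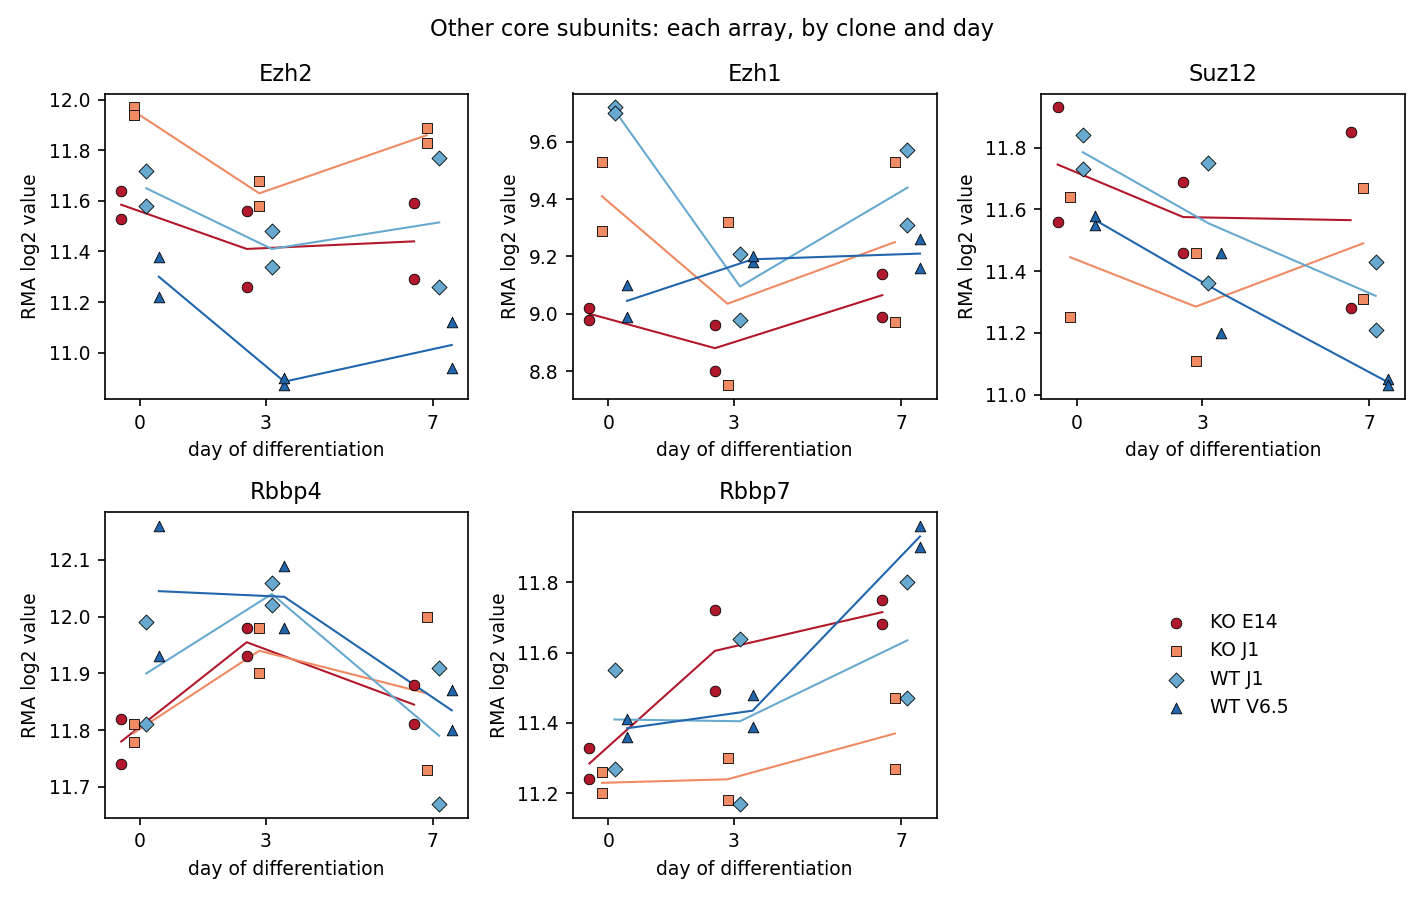
RMA log2 values of Ezh2, Ezh1, Suz12, Rbbp4 and Rbbp7 on each array against the day of differentiation, with lines through the mean of the 2 arrays of a clone and day and a vertical scale of its own for each gene. For Ezh2 KO J1 is highest and WT V6.5 lowest on each day, Suz12 declines in both WT clones, and Rbbp7 is highest in WT V6.5 on day 7 at 11.93.

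Together, 3 of 6 core genes were called in WT cells between day 0 and day 7, Eed and Suz12 lower and Rbbp7 higher. Of all genes 36.6% were called in this comparison, 19.2% lower and 17.4% higher, so the count of core genes is near the background. None of the 6 was called in the interaction of genotype and day 7, where 8.11% of all genes were called and 1 core gene, Suz12, had an unadjusted p under 0.05 in limma, as did 20.3% of all genes. For the 5 core genes other than Eed, the KO minus WT differences on the 3 days ran from −0.24 to 0.38. Their 95% intervals lay between −0.56 and 0.72, that is from 1.47-fold lower to 1.65-fold higher. None of these differences was called. The unadjusted intervals of Ezh2 on day 3 (0.03 to 0.72) and day 7 (0.04 to 0.72) lay wholly on the KO side. A missing call does not show that a difference within its interval is absent.

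**Figure D4:**
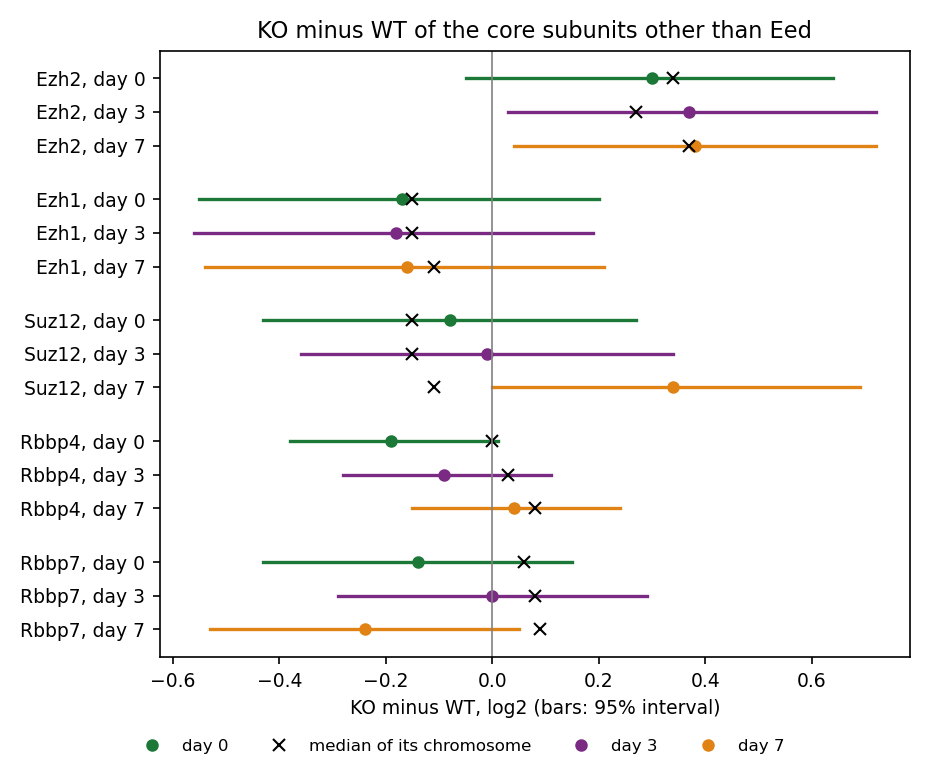
KO minus WT difference (log2) of the 5 core genes other than Eed on days 0, 3 and 7, with points for the estimate, bars for its 95% interval and crosses for the median difference of the genes on the same chromosome. The estimates run from −0.24 to 0.38. The Ezh2 estimates lie beside the chromosome 6 medians of 0.34, 0.27 and 0.37.

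The named genes, 3 for each member, were among those most like it over the 12 group means and differed between members. For Eed these were DQ267102 (r = 0.936), Cfap126 (0.935) and Mdp1 (0.926). For Suz12 they were Lncenc1 (0.922), Ncapg (0.907) and Sox15 (0.897), and for Rbbp7 Ppil6 (0.933), Hnrnpr (0.929) and Agpat4 (0.927). For Suz12, 3 genes had an r over 0.9, so a gene with a higher r than Sox15 was left unnamed. For Rbbp4 they were Tssk6 (0.921), Ly6g5c (0.913) and Marchf9 (0.912). For Ezh2 they were Tmem143 (0.966), Gmcl1 (0.952) and Retsat (0.948), and for Ezh1 Xylt2 (0.906), Mis12 (0.897) and Kctd2 (0.871). Genes with only a provisional name were passed over in this choice. Without the 2 groups furthest from the member's median, these r were 0.750 to 0.821 for Suz12 and 0.806 to 0.858 for Rbbp7. They were then 0.689 to 0.820 for Ezh1, 0.868 to 0.881 for Rbbp4, 0.903 to 0.941 for Eed and 0.908 to 0.942 for Ezh2. Of the 50 genes most like Ezh2, 34 lay on chromosome 6, which holds 5.52% of all genes. Chromosome 11, with 7.85% of all genes, held 22 of the 50 most like Ezh1 and 18 of those most like Suz12. The own chromosome of Eed, Rbbp4 and Rbbp7 held 2 or 3 of the 50.

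Accessory subunits, several of which direct PRC2 to its sites, were next. Of 9 accessory genes, 4 fell in WT cells by day 7: Epop by 1.35, Jarid2 by 1.18, Phf19 by 0.80 and Mtf2 by 0.77. Phf1 (0.37) and Lcorl (0.74) rose, which makes 6 of 9 called, while 36.6% of all genes were called. The adjusted p-values in limma were 6.4e-09, 1.2e-07, 7.0e-05 and 1.7e-05 for the falls. The median change of the list was −0.08, against −0.04 over all genes and −0.18 for the core. In KO cells Epop fell by 0.43 and Lcorl rose by 0.57, and the other 7 were not called, while 16.5% of all genes were called. This KO count of 2 was 1 without replicate 1 of KO E14, replicate 2 of KO J1 or the whole clone KO J1, 0 without the clone KO E14, and 4 with each array centred on its median.

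On day 7 KO cells were higher than WT for 5 of the 9 accessory genes, Jarid2 (1.16), Epop (1.07), Phf19 (0.82), Mtf2 (0.71) and Aebp2 (0.57), and lower for Lcorl (−0.57), while 16.3% of all genes were called. The list's median difference was 0.57, against −0.06 for the 6 core genes and −0.04 for all 19938 genes. On day 0 Aebp2 (0.56) and on day 3 Phf19 (0.62) was the only accessory gene called, with adjusted p in limma of 0.0402 and 0.0484. Of all genes, 2.02% and 2.18% were called on these days. The day 0 call was lost without replicate 1 or 2 of KO E14, WT J1 or WT V6.5 or replicate 1 of KO J1, and that of day 3 without either replicate of KO E14, WT J1 or WT V6.5. Both were also lost relative to the chromosome median and without the clone KO E14, WT J1 or WT V6.5. The interaction was called for Epop (0.91), Jarid2 (0.84), Phf19 (0.78) and Mtf2 (0.66), with adjusted p in limma of 0.00135 to 0.0168. It was called for 8.11% of all genes. Without the clone KO E14, KO J1 or WT V6.5 1 accessory gene was called in the interaction in each case. Jarid2, Epop, Mtf2 and Phf19 thus fell in WT beside the pluripotency genes, whose part in these values was not tested.

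**Figure D5:**
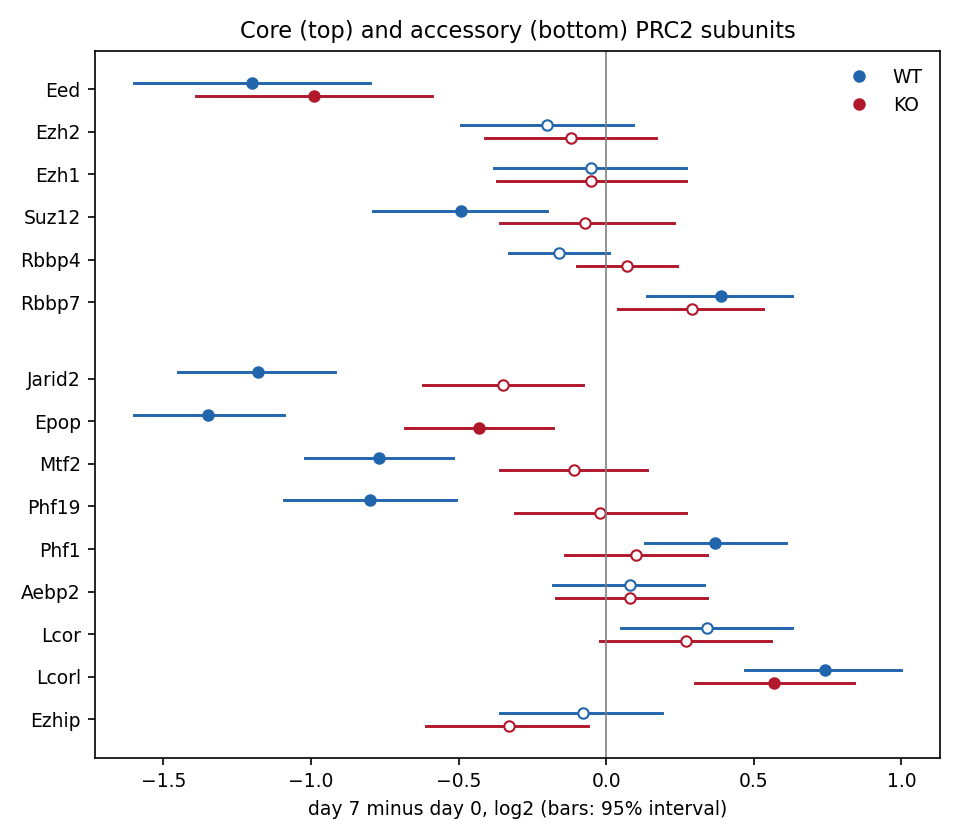
Change from day 0 to day 7 (log2) of the 6 core genes (top) and 9 accessory genes (bottom) in WT and KO cells, with points for the estimate and bars for its 95% interval. Filled points were called in limma. Jarid2, Epop, Mtf2 and Phf19 lie further left in WT than in KO, while Eed lies near −1.20 in WT and −0.99 in KO. The KO change of Eed is between low values, with means of 7.29 and 6.30.

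Other genes around the complex were also compared between the genotypes. Of all genes, 2.02%, 2.18% and 16.3% were called between KO and WT on days 0, 3 and 7. Of the H3K27 demethylases, Kdm6b was lower in KO cells on day 3 (−0.87) and day 7 (−0.76) and rose in WT by day 7 (1.15), and Kdm6a was not called between the genotypes. PRC1 is another Polycomb complex, some forms of which read the PRC2 mark. Of its 17 measured subunits, Bmi1 was higher in KO cells on all 3 days, by 1.65 on day 0 and 1.23 on day 7. On day 7 Phc1 (1.35) and Cbx7 (1.04) were higher as well and none was lower, and on day 3 Pcgf2 (−0.49) was lower. The day 3 count of 2 PRC1 genes was 1 without replicate 1 or 2 of KO E14, replicate 1 of KO J1 or WT V6.5, or replicate 2 of WT J1. On day 7, 5 PRC1 genes were called without WT J1 replicate 1 and 6 without that clone. Of 21 partners of RBBP4 and RBBP7 in other complexes, Mta1 (−0.66) and Sap30 (−0.59) were lower in KO cells on day 0. Mta1 was also lower on day 3 (−0.51) and day 7 (−0.44), when Smarca1 (−1.11) was lower and Hat1 (0.59) and Mta3 (0.49) were higher. The day 0 count of 2 partners was 1 without KO E14 replicate 1 or 2, KO J1 replicate 1 or WT V6.5 replicate 1 or 2, and 0 without the clone KO E14 or WT V6.5. The day 3 call of Mta1 was lost without replicate 1 or 2 of KO E14 or replicate 1 of KO J1, WT J1 or WT V6.5, and the day 7 count of 4 was 2 without replicate 1 of KO E14 or of WT V6.5. Feeder fibroblast markers also differed between the genotypes on day 0. Their list mean was 7.98 to 9.19 on KO and 7.44 to 7.80 on WT arrays, and 4 of 11 were higher in KO cells, among them Lox (1.46) and Fbln2 (1.03). That count was 0 to 2 without replicate 1 or 2 of KO E14 or WT V6.5, replicate 1 of KO J1 or replicate 2 of WT J1. With all arrays the other 7 markers were not called, among them Col1a1 (0.21), Col1a2 (0.34), Col3a1 (0.12) and Pdgfrb (0.15). The part of fibroblast RNA in the day 0 differences was not tested.

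Proliferation genes fell in WT cells beside Eed and Suz12. Of 19 measured, 16 fell and 1 rose by day 7, where 19.2% of all genes fell and 17.4% rose, with a median change of −0.45 and examples in Ccne1 (−2.12), Rrm2 (−0.92), Mcm2 (−0.83) and Mcm3 (−0.81). In KO cells 6 of 19 fell (median −0.28) where 16.5% of all genes were called, but 1 was called without KO E14 replicate 1, KO E14 replicate 2 or KO J1 replicate 1, 3 without WT V6.5 replicate 2, 0 without the clone KO E14 and 1 without KO J1. Without WT J1 replicate 2 the WT count of calls was 11 and without the clone WT V6.5 it was 5, against 17. The mean of the list was 11.45 to 11.57 on the WT arrays of day 0, 10.62 to 11.22 on those of day 7 and 11.04 to 11.38 on the KO arrays of day 7. Its part in the fall of Eed and Suz12 was not tested.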

How the data were processed

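RNA of 24 samples was hybridised to Affymetrix Mouse Gene 1.0 ST arrays. The authors' deposited log2 values are RMA values from Affymetrix Power Tools, as the submitters' processing notes name them. RMA subtracts background, forces 1 distribution on all arrays by quantiles and condenses probes into probe sets. It compresses differences near background and removes changes of total RNA. Versions and build were not given in the sources used here. Values from 2.08 to 14.42 fit a log2 scale. The number of arrays limits the precision.

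Of 35556 probe sets, 21789 had a single symbol in the annotation table, 1621 with several symbols stayed out, and the table lacked 12146. The probe set with the highest mean stood for each of 999 genes with several. Levels of different genes were not compared.

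Differences came from limma 3.58.1 in R 4.3.3 with 6 genotype-by-day means over all arrays and the clone as a random block (consensus correlation 0.161, 18 residual degrees of freedom), with no filter or fold minimum. Line comparisons used a model of 12 group means. The replicate numbers were not used as a block, since the replicate 1 minus 2 differences of groups correlated across genes between −0.40 and 0.47. The median of these correlations was 0.06, and 30 of 66 pairs of groups were over 0.1. The script was tested on simulated data. Named genes were the 6 members, up to 4 called genes of a list with the largest change, and 3 genes among those with the highest r for each member. Phf1, Lcorl, Aebp2, Kdm6a and the fibroblast examples were named after their values were seen. Chromosome medians used 8286 genes with a mean of at least 8. The members and lists were chosen with earlier results of these data known.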

Additional observations from a re-analysis of the deposited data

Results flagged for a closer look

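One array stood apart from the other 3 of its genotype and day among the core genes. Ezh1 on day 3 in WT J1 replicate 2 read 8.98, while the other 3 WT arrays of that day read 9.18, 9.20 and 9.21. Its gap to the nearest array was 0.855 of the whole range, above Dixon's 95% critical value for 4 samples. It was 1 of 36 groups of arrays tested, and chance alone flags about 1 in 20 groups.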

How the results depend on the processing

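No member value changed sign past the threshold: of 1074 values recomputed, 1050 stayed on their side of the threshold, 19 lost the call and 5 gained it. In 39, none of them called, the sign differed from that reported, as for Suz12 in KO versus WT on days 0 and 3 relative to its chromosome (0.09 and 0.15). Counts of called core genes moved as follows, and the cause was not tested except where a fold minimum or fewer arrays set it. With a 2-fold minimum the count was 0 in WT day 3, KO day 3 and KO day 7 against day 0 (1 each without it) and 1 in WT day 7 (3). With the mean of a gene's probe sets it was 0 in WT day 3. After a further quantile normalization it was 2 in KO day 7. Without the clone WT J1 it was 2 in KO versus WT on days 3 and 7 and 0 in WT day 3. Without the clone WT V6.5 it was 0 in WT day 3 and 1 in WT day 7. It was 0 in WT day 3 without the clone KO J1, and 0 in KO day 3 without either KO clone. Leaving out 1 replicate gave 0 to 1 in WT day 3, 1 to 2 in KO versus WT on day 7 and 2 to 3 in WT day 7. The fit with the replicate block changed no call of a member, and it called 391, 422 and 3238 genes in KO versus WT on days 0, 3 and 7.

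Counts over all genes moved more. Averaging the arrays of a line and day left 26 of 402, 58 of 434 and 1936 of 3250 genes called in KO versus WT on days 0, 3 and 7, and a 2-fold minimum left 110, 151 and 870. Without the clone KO E14 these counts were 86, 85 and 1852. Without the clone WT J1 they were 995 on day 0 and 819 on day 3, and without both WT J1 arrays of day 7, added after seeing the data, 639 and 686. With no clone block 613 were called on day 0 and 841 in KO day 3. In time, averaging gave 1486 in WT day 3, 549 in KO day 3 and 926 in the interaction, and a 2-fold minimum 407, 1791, 233, 492 and 673 in WT day 3, WT day 7, KO day 3, KO day 7 and the interaction, whose counts were 2324, 7301, 1269, 3299 and 1617. Without the clone WT V6.5 they were 762 in WT day 3, 4226 in WT day 7 and 443 in the interaction. Without the clone KO E14 they were 228 in KO day 3, 931 in KO day 7 and 511 in the interaction, and without KO J1 305, 1308 and 724. Without WT J1 the count was 1430 in WT day 3, and without KO J1 2132 in KO versus WT on day 7. Centring each array on its median moved the share of higher calls from 75.1% to 62.7%, 72.6% to 57.2% and 61.8% to 45.7% in KO versus WT on days 0, 3 and 7, and from 55.9% to 33.4% in KO day 7.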
